A study of Mus musculus with 126 samples.

Results

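Tet1, Tet2, Tet3 and Tdg encode the enzymes of active DNA demethylation. They are described here in mouse embryonic stem cells that carry a DNA methyltransferase knockout, are treated with a histone deacetylase inhibitor, or both. The members were chosen by gene name, as the entries with these 4 symbols among the 23420 entries of the deposited gene count table. The rule itself uses no measured value. All 4 passed the filter on low counts that left 15822 genes for testing.

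The TET proteins are iron-dependent dioxygenases that use oxygen and 2-oxoglutarate to oxidise 5-methylcytosine to 5-hydroxymethylcytosine, and further to 5-formylcytosine and 5-carboxylcytosine. TDG, thymine DNA glycosylase, cuts out 5-formylcytosine and 5-carboxylcytosine, and base excision repair then fills the gap with unmodified cytosine. TET1 and TET3 carry a CXXC zinc finger that binds CpG-rich DNA, while TET2 lacks it. TET2 binds the protein CXXC4, whose gene lies next to Tet2. Embryonic stem cells are known to express Tet1 and Tet2, whereas Tet3 is known from the oocyte, the zygote and neurons.

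The series holds 126 samples, of which the 8 RNA-seq libraries were used and 118 were not analysed here. All cells were of the J1 line, grown on gelatin in serum with leukaemia inhibitory factor, and were either wild type (WT) or carried the genotype Dnmt1-/-, Dnmt3a-/-, Dnmt3b-/- (TKO), which removes all 3 active DNA methyltransferases. Each genotype was given 5 ng/µl Trichostatin A (TSA), an inhibitor of histone deacetylases, or 0.0033% DMSO as the vehicle control, for 36 h, which gives 4 groups of 2 libraries. The series text calls the 2 libraries of a group biological replicates without saying whether they came from separate cultures, so the p-values measure the spread between these libraries. The labels name 1 cell line per genotype, so the genotype and any other difference between those lines cannot be told apart.

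Ribosomal RNA had been removed from total RNA, and the libraries held 13280631 to 15542527 counts. Levels are CPM, each gene's count per fixed number of counts of its library, after scaling by TMM, a method that sets the bulk of genes equal between libraries, and 3 counts correspond to 0.193 to 0.226 CPM. RNA of the targeted genes was lower in TKO, as labelled, but remained present. DNA methylation was not measured in these libraries. Dnmt1 measured 446 ± 25.4 CPM in WT with DMSO and 130 ± 6.31 in TKO with DMSO (SD, n = 2 each), Dnmt3a 211 ± 36.2 and 26.4 ± 0.802, and Dnmt3b 592 ± 5.32 and 44.9 ± 1.79. The embryonic stem cell markers Pou5f1 and Zfp42 measured 913 and 594 CPM in WT with DMSO, and none of the 10 markers of that list was at 0 in any group.

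Tet1 lies on the minus strand at chr10:62804570-62880014 in the deposited table (mm10, per the submitters' processing notes), with 12 exons and 14082 exon bases. Tet2 lies on the minus strand at chr3:133463677-133544390, with 11 exons and 9181 exon bases. Tet3 lies on the minus strand at chr6:83362374-83441678, with 11 exons and 10906 exon bases. None of the 3 Tet genes shares an exon base with another entry. Tdg lies on the plus strand at chr10:82629838-82650494, with 10 exons and 3218 exon bases, and overlaps other entries over most of them, as described with its values.

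The stretches in front of Tet1, Tet2 and Tet3 are shown because Tet1 and Tet2 moved together in the data, while Tet3 passed no test. Each is the 250 bases before the RefSeq start (GRCm38.p6), written along the gene's own strand, and capitals mark matches on either strand to any of 5 searched motifs. The motifs stand for the 5 transcription factors that the series profiled by ChIP-seq: GCATGCG for NRF1, CCGGAAG for GABPA, GGGCGG for SP1, CACGTG for MAX and AAGATGG for YY1. No 2 of the matches shown overlap each other.
Tet1 (chr10:62887325-62887574): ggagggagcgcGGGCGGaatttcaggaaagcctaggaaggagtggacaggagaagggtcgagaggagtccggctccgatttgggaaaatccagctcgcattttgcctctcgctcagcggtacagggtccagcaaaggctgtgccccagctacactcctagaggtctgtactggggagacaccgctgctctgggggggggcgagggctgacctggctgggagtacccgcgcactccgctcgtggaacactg
Tet2 (chr3:133544391-133544640): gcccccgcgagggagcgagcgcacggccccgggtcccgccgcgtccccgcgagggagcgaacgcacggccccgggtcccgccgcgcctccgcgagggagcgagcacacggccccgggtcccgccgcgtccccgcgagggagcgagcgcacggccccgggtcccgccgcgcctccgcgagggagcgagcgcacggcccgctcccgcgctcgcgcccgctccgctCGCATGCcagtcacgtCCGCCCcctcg
Tet3 (chr6:83441679-83441928): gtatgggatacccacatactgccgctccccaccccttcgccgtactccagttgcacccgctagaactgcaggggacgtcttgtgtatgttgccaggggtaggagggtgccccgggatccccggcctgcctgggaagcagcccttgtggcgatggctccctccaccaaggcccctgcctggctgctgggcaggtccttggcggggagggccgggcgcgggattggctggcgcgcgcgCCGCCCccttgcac
The Tet2 window was the richest in CpG dinucleotides, the sites of DNA methylation, with 51 of them, and its ratio of observed to expected CpG of 1.19 was above that of 99.3% of 32817 promoter windows of the same length. The Tet1 window held 15 CpGs at a ratio of 0.63, the Tet3 window 17 at 0.562 and the Tdg window, which is not printed, 19 at 0.97. The median ratio over all windows was 0.373. Tet1, Tet2 and Tet3 each held 1 SP1 match, a motif present in 32.7% of all windows. Of the 4 members only Tet2 held an NRF1 match, found in 3.01% of windows, and only Tdg held a MAX match, found in 6.02%. None held the GABPA motif (6.91% of windows) or the YY1 motif (4.49%). The Tet1 window belongs to a RefSeq start 7310 bases upstream of the start of the deposited Tet1 entry, while the other starts are the same in both.

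Tet1 was the most abundant Tet transcript per length in every group, followed by Tet2 and then Tet3. In WT with DMSO, the levels per kilobase of exon were 52.0 ± 2.31 CPM for Tet1, 25.2 ± 4.64 for Tet2 and 1.43 ± 0.0288 for Tet3 (SD, n = 2). In both TSA groups Tet1 and Tet2 came close to each other: in TKO with TSA the libraries held 11.98 and 7.65 CPM per kilobase of Tet1 against 8.1 and 7.03 of Tet2, so that the ranges of the neighbouring genes overlapped. Tet1 stood above Tet2 within each library, by 1.88 to 2.29 times in WT with DMSO and by 1.09 to 1.48 times in TKO with TSA. Tet3 stayed the lowest by a wide margin. Its distance from Tet1 was 34.7 to 38.0 times in WT with DMSO and 5.68 to 9.37 times in TKO with TSA. Against other genes per length, Tet1 stood at the 87.2 percentile of tested genes in WT with DMSO and at the 58.6 percentile with TSA, Tet2 at the 74.4 and 51.0, and Tet3 at the 26.5 and 20.6.

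**Figure D1:**
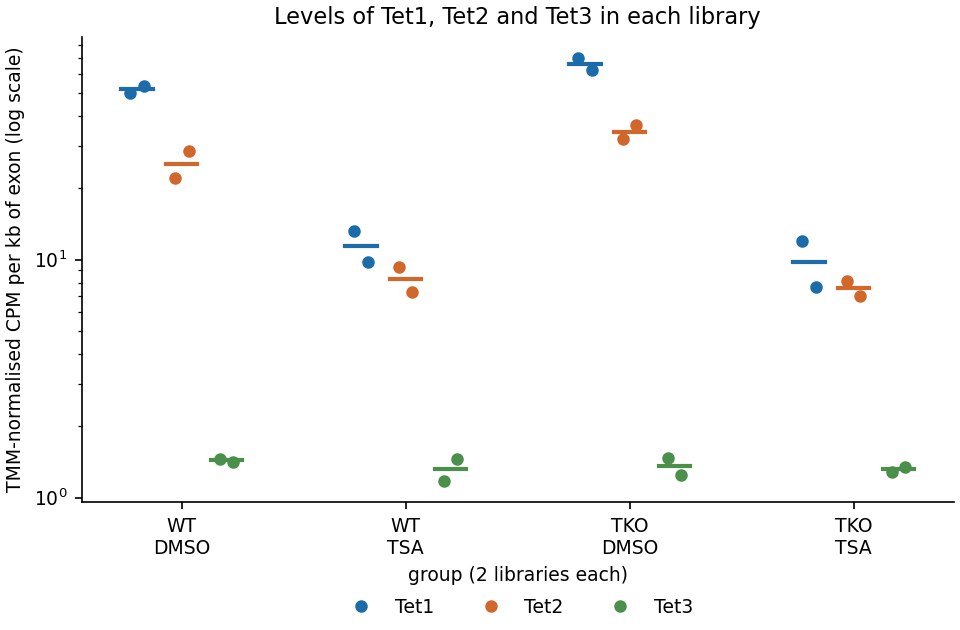
Level of Tet1, Tet2 and Tet3 in each of the 8 libraries as TMM-normalised CPM per kilobase of exon, on a log axis. Points are libraries and lines are group means. Tet1 and Tet2 sit lower in all 4 TSA libraries than in the 4 DMSO libraries, and Tet3 stays between 1.18 and 1.46 throughout.

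TSA lowered Tet1 and Tet2 in both genotypes, and these were among the largest decreases of any abundant gene. Tet1, the oxidase with the CXXC domain, measured 709 and 755 CPM in the libraries of WT with DMSO and 185 and 138 CPM in those of WT with TSA. Both TSA libraries were low, both DMSO libraries were high, and the groups did not overlap. Tet1 was 4.54-fold lower, a log2 fold change of -2.18 ± 0.19 (SE; 95% interval -2.60 to -1.76, edgeR adjusted p = 1.817e-05). In TKO, Tet1 went from 991 and 886 CPM with DMSO to 169 and 108 CPM with TSA. All DMSO libraries again lay above all TSA libraries. The decrease was 6.79-fold, a log2 fold change of -2.76 ± 0.20 (95% interval -3.19 to -2.33, edgeR adjusted p = 2.548e-06).

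Tet2, the oxidase without a CXXC domain, measured 202 and 262 CPM in WT with DMSO and 85.2 and 67.0 CPM in WT with TSA. Both TSA libraries lay below both DMSO libraries. Tet2 was 3.04-fold lower, a log2 fold change of -1.60 ± 0.15 (95% interval -1.94 to -1.27, edgeR adjusted p = 2.642e-05). In TKO the libraries held 294 and 338 CPM with DMSO and 74.4 and 64.6 CPM with TSA, again without overlap. The decrease was 4.55-fold, a log2 fold change of -2.19 ± 0.15 (95% interval -2.52 to -1.85, edgeR adjusted p = 2.54e-06). In these bulk libraries, fewer cells that express a gene and less RNA per cell cannot be told apart.

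Tet3 did not pass the test. It measured 15.8 and 15.4 CPM in WT with DMSO and 12.8 and 15.9 CPM in WT with TSA, ranges that overlapped. The log2 fold change was -0.12 ± 0.16, and its 95% interval of -0.48 to 0.23 leaves out a change of the size seen for Tet1 or Tet2 (edgeR adjusted p = 0.542). In TKO the libraries held 15.9 and 13.5 CPM with DMSO and 13.9 and 14.7 CPM with TSA, also overlapping, with a log2 fold change of -0.04 ± 0.16 (95% interval -0.40 to 0.31, edgeR adjusted p = 0.831). The sign of these small Tet3 values turns with the scaling: with total counts alone they were 0.08 in WT and 0.11 in TKO.

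TSA changed much of the transcriptome, so the calls are read against that background. In WT 52.8% of tested genes were called in either direction and 25.9% were called lower; in TKO the shares were 58.7% and 27.9%. The sizes stand out more than the calls. Of all tested genes, 0.689% had a lower log2 fold change than Tet1 in WT and 0.651% in TKO, and for Tet2 the shares were 1.72% and 1.3%. Among the 1377 genes at least as abundant as Tet2 over the 8 libraries, 49 (3.56%) were called and at least 2-fold lower in WT and 62 (4.50%) in TKO. In that set Tet1 had the fifth lowest log2 fold change in both genotypes, Tet2 ranked 10 in WT and 8 in TKO, and the median gene stood at -0.29 and -0.26. Of the called genes 51.0% were higher in WT and 52.5% in TKO; with total counts alone the shares were 70.5% and 64.4% and the median of all genes shifted to 0.22 and 0.19, and with upper-quartile scaling the share in WT was 65.8% and the medians were 0.16 and 0.11. Tet1 and Tet2 were called lower in each of the 15 alternative analyses in both genotypes.

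**Figure D2:**
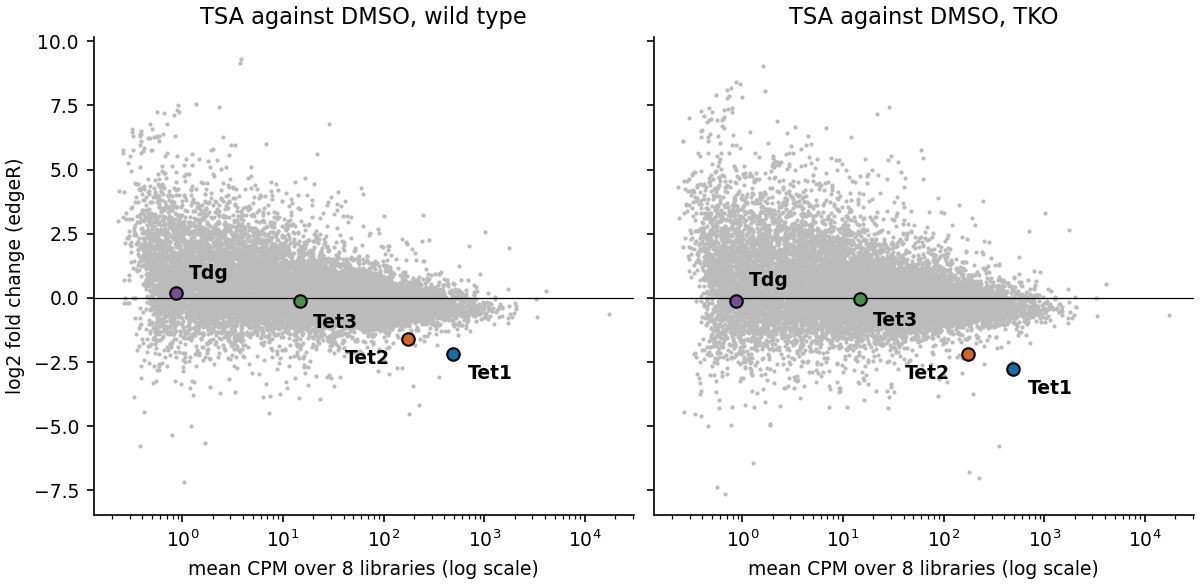
Log2 fold change of TSA against DMSO for each of the 15822 tested genes against its mean CPM on a log axis, in WT (left) and TKO (right), with the 4 members marked. Tet1 and Tet2 lie at the lower edge of the genes of their abundance, while Tet3 and Tdg lie near 0.

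As Tet1 and Tet2 fell, the summed Tet level was lower with TSA and its makeup differed. The sum of the 3 levels per kilobase was 78.7 ± 6.92 in WT with DMSO and 21.1 ± 3.59 with TSA, 3.74-fold lower (SD, n = 2). In TKO it was 102 ± 2.03 with DMSO and 18.7 ± 3.77 with TSA, 5.48-fold lower. Tet1 made up 64.2 and 68.3% of the sum in the WT libraries with DMSO and 52.7 and 55.7% in those with TSA. In TKO its share was 62.3 and 67.8% with DMSO and 47.7 and 56.1% with TSA. The size of the shares depends on the scaling by exon length. Without it the mean Tet1 share was 74.8% with DMSO and 63.9% with TSA in WT, and 73.9% and 61.6% in TKO. The share of Tet2 went from 29.8 and 34.1% to 39.3 and 39.4% in WT, and from 30.8 and 36.5% to 37.9 and 43.9% in TKO. Tet3 held 1.69 and 1.97% in WT with DMSO and 4.99 and 7.87% with TSA, and 1.23 and 1.41% against 5.99 and 8.41% in TKO. For all 3 genes and both genotypes the DMSO and TSA shares did not overlap. The 3 shares of a library always make up the whole, so they are not separate results. The Tet3 level itself stayed between 1.18 and 1.46 CPM per kilobase, so its larger share reflects the lower sum. With 2 libraries against 2 an exact permutation test cannot go below a two-sided p of 0.333, so the shares carry no test.

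**Figure D3:**
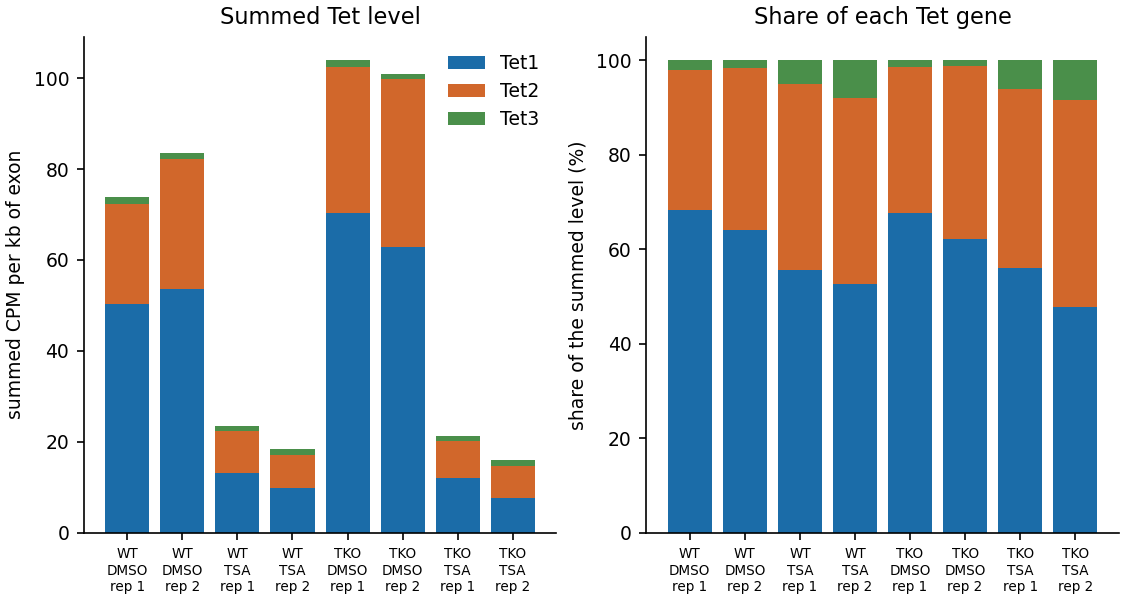
Summed level of Tet1, Tet2 and Tet3 per kilobase of exon (left) and the share of each gene in that sum (right), 1 bar per library. The TSA bars are 16.0 to 23.6 CPM per kilobase high against 73.8 to 104 for DMSO, and the Tet3 share is larger in them.

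Loss of the DNA methyltransferases alone moved the Tet genes little compared with TSA, and none passed the test. In DMSO, both TKO libraries of Tet1 (991 and 886 CPM) lay above both WT libraries (709 and 755 CPM), with a log2 fold change of 0.36 ± 0.18 (95% interval -0.04 to 0.76, edgeR adjusted p = 0.194). Tet2 also stood higher in both TKO libraries, at 0.45 ± 0.15 (95% interval 0.13 to 0.77), and missed the threshold narrowly (edgeR adjusted p = 0.0507). The Tet2 call depends on the processing: it passed in 11 of 15 alternatives, the adjusted p ran from 0.014 to 0.323 over the 15, and leaving out single libraries gave log2 fold changes of 0.25 to 0.65, the highest without the second WT DMSO library. Tet3 stood at -0.08 ± 0.16 (95% interval -0.44 to 0.27, edgeR adjusted p = 0.768). In this comparison 20.4% of tested genes were called.

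Under TSA the genotypes could not be separated for any Tet gene. The log2 fold change of TKO against WT was -0.22 ± 0.19 for Tet1 (edgeR adjusted p = 0.439), -0.13 ± 0.15 for Tet2 (0.583) and -0.00 ± 0.16 for Tet3 (0.992), where 18.4% of genes were called. For Tet1 this rests on which libraries are used: without the first TKO TSA library it was -0.58 and passed (edgeR adjusted p = 0.0405), and without the second it was 0.07. With both changes at once, TKO with TSA against WT with DMSO, Tet1 stood at -2.41 ± 0.19 (edgeR adjusted p = 3.477e-06) and Tet2 at -1.74 ± 0.15 (5.572e-06), both called, in a comparison where 61.9% of genes were called and 30.2% were called lower. Tet3 stood at -0.13 ± 0.16 (0.518). These comparisons share libraries with those above.

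The decrease with TSA was nominally larger in TKO than in WT for both genes, and this difference did not pass the correction. The interaction, the log2 effect of TSA in TKO minus that in WT, was -0.58 ± 0.26 for Tet1 (95% interval -1.15 to -0.01, edgeR adjusted p = 0.336) and -0.58 ± 0.21 for Tet2 (95% interval -1.04 to -0.12, edgeR adjusted p = 0.225). Before adjustment over all genes, edgeR gave 0.0466 and 0.0181. For Tet3 it was 0.08 ± 0.23 (edgeR adjusted p = 0.918). The interaction was called for 1.35% of tested genes, and for neither Tet1 nor Tet2 in any of the 15 alternatives.

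**Figure D4:**
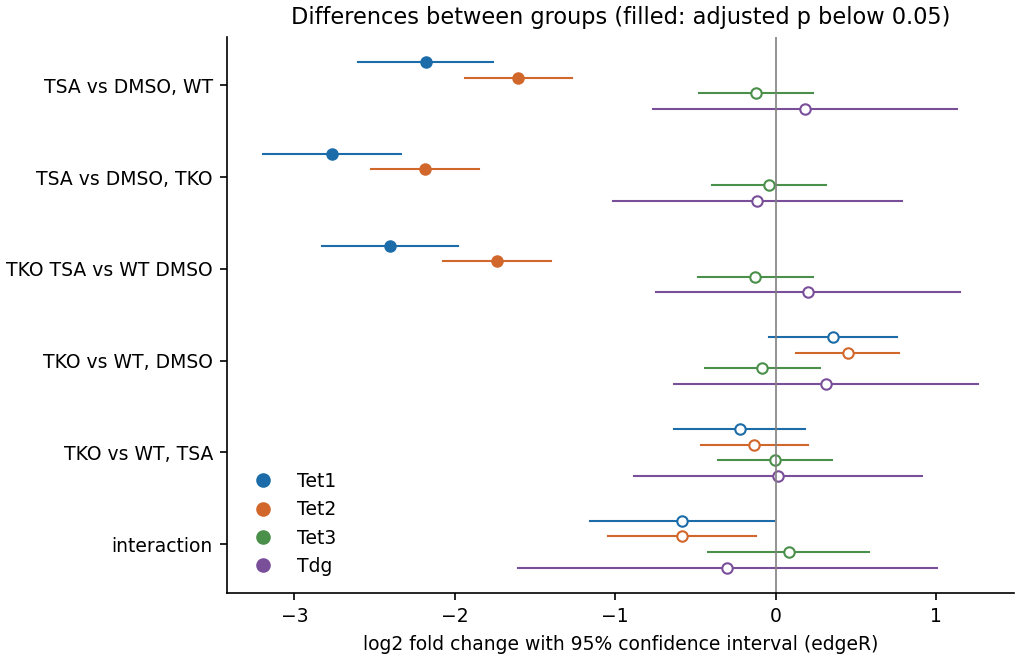
Log2 fold change of the 4 members in 6 comparisons, with 95% confidence intervals from edgeR; filled points passed an adjusted p below 0.05. Filled points are Tet1 and Tet2 in the 3 comparisons of TSA with DMSO libraries, and the intervals of Tdg are the widest.

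Only a small part of the Tdg exon bases lies outside other entries. The table also holds the entry Gm9855 on the same strand, whose 10 exons and 2898 exon bases lie wholly inside the exons of Tdg, and which has 0 counts in all 8 libraries. A further 62 bases are shared with the 3' end of Glt8d2 on the other strand, so 258 of the 3218 Tdg exon bases belong to Tdg alone. The whole entry drew 101 counts over the 8 libraries. Entries built like Gm9855 were mostly empty: of 419 entries with at least 90% of their exon bases in 1 other entry on the same strand, 391 (93.3%) had 0 counts, against 2599 (11.3%) of the other 23001. Whether reads in shared bases were left out of the Tdg count was not tested. Tdg values describe the counts assigned to this entry and are not read as a measure of the gene's expression.

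**Figure D5:**
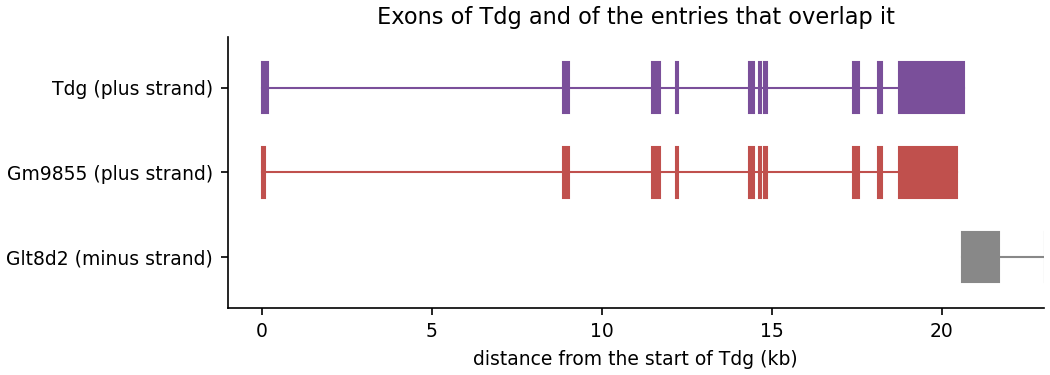
Exons of Tdg and of the 2 entries that overlap it, drawn as boxes against the distance from the start of Tdg in kilobases; Glt8d2 continues beyond the right edge. The 10 Gm9855 exons sit on the 10 Tdg exons and leave 258 bases of Tdg to itself.

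Within that limit no difference in Tdg was detectable. The entry held 8 and 12 counts in WT with DMSO, 14 and 13 in WT with TSA, 15 and 12 in TKO with DMSO, and 12 and 15 in TKO with TSA. All groups overlapped their neighbours, at 0.772 ± 0.284, 0.869 ± 0.0201, 0.95 ± 0.108 and 0.877 ± 0.0919 CPM in the same order (SD, n = 2). The log2 fold change with TSA was 0.19 ± 0.43 in WT (95% interval -0.76 to 1.13, edgeR adjusted p = 0.737) and -0.11 ± 0.41 in TKO (95% interval -1.01 to 0.79, edgeR adjusted p = 0.821). For TKO against WT in DMSO it was 0.32 ± 0.43 (edgeR adjusted p = 0.66). The interval with TSA reaches a 2-fold rise in WT and a 2-fold fall in TKO, so such changes could have been missed with so few counts.

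Of 21 tested base excision repair genes, which act after oxidation, 13 were called lower with TSA and 1 higher in WT, and 8 lower, 2 higher and 11 neither in TKO, where 25.9% and 27.9% of all tested genes were called lower. The median log2 fold changes of the list were -0.40 in WT and -0.24 in TKO, beside 0.01 and 0.04 over all tested genes and -0.29 and -0.26 over the 1377 abundant genes. Neil2, a glycosylase that works with TDG on oxidised bases, fell from 14.0 ± 1.85 to 7.10 ± 0.146 CPM in WT, a log2 fold change of -0.98 ± 0.18 (edgeR adjusted p = 0.00107), and by 1.26 ± 0.20 on the log2 scale in TKO (edgeR adjusted p = 3.039e-04). The glycosylases Nthl1 and Mutyh fell in WT by 0.70 and 0.81 on the log2 scale and in TKO by 0.85 and 0.68. Apex1, the nuclease that cuts the strand where a base was removed, fell by 0.64 in WT and 0.87 in TKO on the log2 scale. Its counts are uncertain, since 70.9% of its exon bases lie in other entries. Mbd4, the other glycosylase for thymine opposite guanine, rose in WT by 0.47 ± 0.14 (edgeR adjusted p = 0.0149) and stood at 0.25 ± 0.14 in TKO (0.143). Without the first WT DMSO or the second WT TSA library the WT value of Mbd4 was 0.32 or 0.34 and not called, and with total counts alone its TKO value was 0.40 and called. Smug1, a uracil glycosylase, fell in WT by 0.34 ± 0.12 on the log2 scale (edgeR adjusted p = 0.0333) and stood at -0.16 in TKO; its WT call was lost without the first WT DMSO library (-0.28) or either WT TSA library (-0.39 and -0.29), and with upper-quartile scaling (-0.19), total counts alone (-0.13) or DESeq2 (-0.32). Neil1 stood at -0.47 and -0.49 (edgeR adjusted p = 0.105 and 0.0961).

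In DMSO, 2 of the 21 repair genes were called higher in TKO than in WT and 3 lower, in a comparison where 20.4% of all tested genes were called. Nthl1 rose from 29.9 ± 2.20 to 52.8 ± 3.14 CPM (log2 fold change 0.82 ± 0.12, edgeR adjusted p = 7.935e-04). Neil2 fell by 0.80 ± 0.18 on the log2 scale (edgeR adjusted p = 0.00958), and Ogg1, the glycosylase for oxidised guanine, by 0.54 ± 0.13 (0.0126). Without the first or the second TKO DMSO library the calls of Neil2 and Ogg1 were lost, with log2 fold changes of -0.75 and -0.84 for Neil2 and -0.52 and -0.56 for Ogg1.

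Partners and regulators of the TET proteins went both ways. Of 17 tested, 3 were called higher and 9 lower with TSA in WT, and 5 higher and 8 lower in TKO, with medians of -0.31 and -0.27; over all tested genes 25.9% and 27.9% were called lower. Dppa3, which shields 5-methylcytosine from TET3 in the zygote, rose from 24.9 ± 5.09 to 70.3 ± 11.5 CPM in WT, a log2 fold change of 1.5 ± 0.24 (edgeR adjusted p = 4.824e-04), and by 2.04 ± 0.24 in TKO (3.881e-05). Prdm14, a regulator of the naive state that recruits TET proteins, fell from 16.4 ± 3.19 to 6.03 ± 0.546 CPM in WT (log2 fold change -1.44 ± 0.21, edgeR adjusted p = 2.807e-04) and from 34.7 ± 6.65 to 4.65 ± 0.798 CPM in TKO (-2.90 ± 0.21, 3.091e-06). Prdm14 was the only gene of the pathway lists with a called interaction, in a test that called 1.35% of all tested genes. Outside these lists Dnmt3b had one, at 1.33 ± 0.16 (edgeR adjusted p = 0.00521). So did the cell type markers Tdgf1, Eomes, Nes, Col1a1 and Col3a1. Ogt, which modifies TET proteins and binds TET1, did not pass the test, at -0.20 ± 0.09 in WT and 0.09 ± 0.09 in TKO (edgeR adjusted p = 0.0723 and 0.401), and its call depends on the scaling: with the gene length offset it was -0.26 and called in WT, and with total counts alone it was 0.0019 in WT and 0.24 and called in TKO. In DMSO, where 20.4% of all tested genes were called, 2 of the 17 were higher in TKO and none was called lower: Prdm14 by 1.09 ± 0.19 (edgeR adjusted p = 0.00264) and Nanog, a pluripotency factor that binds TET1, by 0.74 ± 0.12 (0.00155).

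Cxxc4, whose protein binds TET2, is the nearest tested gene on the side of higher coordinates, 692 kb from Tet2, and went the opposite way. It rose from 0.812 ± 0.341 to 1.98 ± 0.377 CPM in WT (log2 fold change 1.29 ± 0.39, edgeR adjusted p = 0.0175) and from 0.740 ± 0.0177 to 2.94 ± 0.432 CPM in TKO (1.98 ± 0.38, 0.00103). The WT call was lost without the first WT DMSO library, at 0.89, without the second WT TSA library, at 1.08, and with DESeq2, at 1.31. Cxxc5, a related gene with the same zinc finger, fell by 0.79 ± 0.11 on the log2 scale in WT (edgeR adjusted p = 2.294e-04) and by 0.39 ± 0.11 in TKO (0.0112), where it was not called without the second TKO DMSO (-0.38) or first TKO TSA library (-0.39) or with total counts alone (-0.25). Tacr3, the next tested gene beyond Cxxc4 at 1285 kb from Tet2, was called higher with TSA. It went from 0.305 to 4.08 CPM in WT and from 0.0706 to 6.68 CPM in TKO. In TKO the DMSO level is below the floor of 3 counts. The tested genes closest to the Tet genes stood nearer 0 on the log2 scale than Tet1 and Tet2. Ccar1, 12.2 kb from Tet1, stood at -0.33 in WT and -0.38 in TKO, and Slc25a16, 40.6 kb away on the other side, at 0.27 and -0.41. Ppa2, 85.6 kb from Tet2, stood at -0.38 and -0.50, and Bola3, 3.98 kb from Tet3, at -0.40 and -0.68.

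Of 20 tested genes that set the supply of 2-oxoglutarate, the TET co-substrate, or of the inhibitors succinate and fumarate, 10 were called lower and 4 higher with TSA in WT, and 9 lower and 4 higher in TKO; over all tested genes 25.9% and 27.9% were called lower. The medians of -0.28 and -0.15 were no lower than those of the 1377 abundant genes. The aminotransferases Psat1 and Got1, whose reactions make or use 2-oxoglutarate, fell in both genotypes. The log2 falls were 0.85 and 0.80 in WT and 0.50 and 0.75 in TKO. Subunits of succinate dehydrogenase fell too in both genotypes. The log2 falls in WT and TKO were 0.56 and 0.63 for Sdhd, 0.44 and 0.73 for Sdhc, and 0.54 and 0.67 for Sdhb. In DMSO, Idh1 and Idh2, which make 2-oxoglutarate from isocitrate, were higher in TKO: Idh1 rose from 178 ± 16.6 to 328 ± 3.50 CPM (log2 fold change 0.88 ± 0.09, edgeR adjusted p = 1.243e-04) and Idh2 from 132 ± 5.26 to 215 ± 10.7 CPM (0.71 ± 0.10, 8.7e-04). Got2, a mitochondrial aminotransferase, fell by 0.64 ± 0.08 on the log2 scale, so that 2 of the 20 were called higher and 2 lower, beside 20.4% of all tested genes called.

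Of 12 genes for readers of oxidised cytosine, deaminases and GADD45 proteins, 4 were called higher and 6 lower with TSA in WT, and 4 higher and 7 lower in TKO, with medians of -0.52 and -0.40; over all tested genes 25.9% and 27.9% were called lower. Apobec3, a cytosine deaminase of single-stranded DNA, fell on the log2 scale in both genotypes. The falls were 1.20 ± 0.13 in WT (edgeR adjusted p = 4.69e-05) and 1.08 ± 0.13 in TKO (4.223e-05). Apobec2 fell by 1.17 in WT and 1.96 in TKO. The WT call of Apobec2 was lost without the second WT DMSO library (-0.93) or the second WT TSA library (-0.79). Gadd45a, a stress gene linked to demethylation, rose with TSA by 0.96 ± 0.12 in WT (edgeR adjusted p = 1.268e-04) and 1.38 ± 0.13 in TKO (1.188e-05). With DMSO it was 0.95 lower on the log2 scale in TKO than in WT, and 19.4% of its exon bases lie in other entries. Gadd45b also rose with TSA, by 0.75 ± 0.12 in WT (edgeR adjusted p = 4.152e-04) and 1.14 ± 0.12 in TKO (2.08e-05). In TKO against WT with DMSO, Gadd45b fell by 0.56. That call was lost without the first WT DMSO library (-0.47) or the first TKO DMSO library (-0.48). In that comparison 2 of the 12 were called lower and none higher, beside 20.4% of all tested genes called.

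Among 9 other dioxygenases of nucleic acids that use 2-oxoglutarate, none was called higher with TSA, and 2 were called lower in WT and 3 in TKO, near the 25.9% and 27.9% of all tested genes called lower, with medians of -0.26 in both. Alkbh1 fell by 0.92 ± 0.12 on the log2 scale in WT (edgeR adjusted p = 1.452e-04) and by 1.05 ± 0.12 in TKO (4.148e-05), and Alkbh8 fell by 0.80 and 1.12. Alkbh7 fell in TKO by 1.15 ± 0.14 (edgeR adjusted p = 5.528e-05) and stood at -0.34 ± 0.14 in WT (0.0597). In DMSO, Alkbh3 was 0.46 lower on the log2 scale in TKO and Alkbh7 0.42 higher, both close to the threshold (edgeR adjusted p = 0.0456 and 0.0494). Leaving out any single library ended the Alkbh3 call, with values between -0.61 and -0.32, and the Alkbh7 call, with values between 0.37 and 0.47.

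On the opposing side of the cycle, Dnmt3l, the cofactor of the de novo methyltransferases, rose with TSA in both genotypes, by 0.70 ± 0.12 in WT and 0.70 ± 0.12 in TKO (edgeR adjusted p = 6.404e-04 and 4.223e-04). It was also higher in TKO than in WT with DMSO, at 709 ± 54.2 against 339 ± 6.13 CPM (log2 fold change 1.07 ± 0.12, edgeR adjusted p = 1.791e-04). Dnmt3b fell with TSA in WT, from 592 ± 5.32 to 361 ± 24.3 CPM (-0.72 ± 0.11, edgeR adjusted p = 2.916e-04). In TKO, where Dnmt3b is a targeted gene, it rose from 44.9 ± 1.79 to 68.7 ± 10.4 CPM (0.61 ± 0.11, edgeR adjusted p = 8.442e-04). Uhrf1, which guides DNMT1 to replicated DNA, did not pass the test, at -0.15 ± 0.09 in WT and -0.18 ± 0.09 in TKO (edgeR adjusted p = 0.16 and 0.103), and with total counts alone its WT value was 0.0495, while with the gene length offset its TKO value was -0.24 and called.

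With TSA, 52.8% of all tested genes in WT and 58.7% in TKO were called in either direction, and 25.9% and 27.9% were called lower. The counts of each marker list stand beside these shares. Of 10 embryonic stem cell markers, 8 were called lower with TSA in each genotype and none higher. Their medians were -0.89 in WT and -1.17 in TKO. Their summed level was 3505 to 3976 CPM in WT with DMSO and 1941 to 2179 with TSA, and 4430 to 4855 against 1927 to 2255 in TKO. In DMSO 5 of the 10 were called higher in TKO and none lower, beside 20.4% of all tested genes called in either direction. Tet1 and Tet2 also stood higher there but did not pass the test. Of 6 trophoblast markers, 4 were called higher with TSA in each genotype and none lower. Their summed levels were 269 to 418 against 595 to 654 CPM in WT and 68.8 to 102 against 267 to 271 in TKO. Most of these sums lay in Krt8 and Tfap2c. Krt8 stood at 291 against 464 CPM in WT and 30.35 against 36.16 in TKO, where it was not called. Tfap2c stood at 38.1 against 124 CPM in WT and 43.8 against 203 in TKO. Of the 7 tested fibroblast markers, 4 were called higher and 1 lower in WT and all 7 higher in TKO, with summed levels of 38.5 to 45.2 against 80.4 to 96.2 CPM and 10.99 to 11.02 against 36.4 to 54.5 CPM. Of 5 tested mesoderm markers, 2 were called higher and 1 lower in WT and 2 higher and none lower in TKO, with summed levels of 11.6 to 18.7 against 31.5 to 34.9 CPM and 7.595 to 7.641 against 33.8 to 45.8 CPM. Most of that difference lay in Hand1, at 0.864 against 20.3 CPM in WT and 1.31 against 29.9 in TKO. Of 6 endoderm markers, 1 was called higher in WT and 2 in TKO and none lower, with summed levels of 5.50 to 7.30 against 8.80 to 11.6 CPM and 18.3 to 20.2 against 28.3 to 32.4 CPM. Neural markers summed to 334 to 417 CPM against 173 to 207 in WT and 295 to 323 against 158 to 167 in TKO, and 4 of 6 were called lower in WT and 3 in TKO, with 2 called higher in each. In sums of this kind the first range is DMSO and the second TSA. The part of these shifts in the changes of Tet1 and Tet2 was not tested.

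Tet1 and Tet2 followed nearly the same pattern over the 8 libraries, with a Pearson r of 0.988 between their log2 CPM, while r between Tet1 and Tet3 was 0.271. These correlations describe libraries that share treatment and depth and carry no p. By the same measure the genes most like Tet1 were Dpy30, a subunit of the histone H3 lysine methyltransferase complexes, with r = 0.999, Timm8b (0.999) and Dtymk (0.998). Dpy30 went from 116 ± 2.94 to 43.8 ± 7.79 CPM in WT and from 134 ± 5.43 to 37.8 ± 8.30 CPM in TKO with TSA. A high r does not mean a change of the same size. With TSA, Timm8b and Dtymk stood at log2 fold changes of -0.66 and -0.60 in WT and -0.83 and -0.79 in TKO. Those most like Tet2 were 2310057M21Rik (0.999), Aldoart1 (0.997) and Snrpa (0.997), a protein of the U1 spliceosomal particle. In that order their log2 fold changes with TSA were -0.71, -0.77 and -0.43 in WT and -0.99, -0.99 and -0.57 in TKO. Such patterns were common: 15.3% of 14420 genes reached an r of 0.9 with Tet1 and 13.5% with Tet2. Only 1 gene, 2300009A05Rik (0.913), did so with Tet3, followed by Snord65 (0.894) and Crispld1 (0.872). For Tdg, with at most 15 counts in a library, no likeness is given.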

How the data were processed

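Per the labels' protocols, DNase-treated total RNA was depleted of ribosomal RNA, and strand-directional paired-end libraries were made from it. The authors deposited raw read counts per gene for 8 libraries, with each gene's exons, strand and summed exon length in bases, the other unit read here as deposited. The submitters' processing notes name TopHat2 2.0.13, featureCounts 1.4.5-p1, edgeR 3.22.3 and the build mm10. The annotation, the strand setting and the handling of reads shared by entries are not given in the sources used here, so genes with overlapping exons are uncertain; 2 names occur more than once in the table.

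Counts were tested with edgeR 4.0.16 (quasi-likelihood, R 4.3.3) after filterByExpr and TMM, with 4 group means over 8 libraries (4 residual degrees of freedom, common coefficient of variation 10.3%), and p-values were adjusted by Benjamini-Hochberg over 15822 genes; "called", "rose" and "fell" mean an adjusted p below 0.05. Standard errors are the log2 fold change divided by the root of F. The script was tested on simulated data first. Replicates differed beyond sampling noise (chi-square per degree of freedom 5.28 to 12.2), and each library counted as 1 replicate. Floors cover counting error only, since amplified reads are not independent molecules. Pathway genes named are the 3 with the largest change per list and comparison among called genes of at least 1 CPM whose libraries did not overlap, plus genes with a called interaction and a fixed set tied to the members (Dnmt1, Dnmt3a, Dnmt3b, Dnmt3l, Uhrf1, Cxxc4, Cxxc5, Ogt, Mbd4, Smug1, Neil1, Neil2, Dppa3). A gene that this rule also names is not reported here. The members and lists were chosen with earlier results of these data known, and other genes named (cell markers, neighbours) were chosen after their values were seen. Alternatives were upper-quartile scaling, total counts, a gene length offset, no filter, DESeq2 1.42.0, limma-voom (limma 3.58.1), a replicate block and leaving out each library. Promoter stretches come from RefSeq (GRCm38.p6), where all 4 members matched by symbol.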

Additional observations from a re-analysis of the deposited data

Results flagged for a closer look

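The effect of TSA on Prdm14, a partner of the TET proteins, differed between the genotypes. The log2 fold change in TKO minus that in WT was -1.466 (adjusted p = 0.0445, edgeR interaction test). That test called 1.35% of all tested genes. The Prdm14 level fell from 16.4 ± 3.19 to 6.03 ± 0.546 CPM in WT and from 34.7 ± 6.65 to 4.65 ± 0.798 CPM in TKO (SD, n = 2). The genotypes thus differed more with DMSO than with TSA. The difference stayed between -1.68 and -1.26 over 15 alternatives and lost its call in 7 of them: with limma-voom (-1.48), and without the first WT DMSO (-1.27), first WT TSA (-1.37), second WT TSA (-1.55), first TKO DMSO (-1.65), second TKO DMSO (-1.26) or second TKO TSA library (-1.30).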

How the results depend on the processing

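Tet1 and Tet2 were called lower in every one of the 15 alternatives for TSA in WT, TSA in TKO and both changes together, with log2 fold changes of -2.42 to -1.98 and -1.79 to -1.40, -3.13 to -2.48 and -2.30 to -2.04, and -2.77 to -2.12 and -1.92 to -1.54. Of 360 recomputed member values, 322 kept their direction and side of the threshold, 12 came to pass it and 26 changed sign, none of the latter called; the cause was not tested.

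Tet3 with TSA changed sign with upper-quartile scaling (0.0269 in WT, 0.0339 in TKO) and total counts (0.0815 and 0.107), and with total counts it was 0.044 for both changes together; for TKO against WT with TSA it was 0.0098 with limma-voom. Tdg was 0.0342 for TSA in TKO with total counts, and for TKO against WT with TSA -0.0256 with upper-quartile scaling and -0.0175 with total counts. For TKO against WT in DMSO, Tet2 passed with upper-quartile scaling (0.48), total counts (0.47), no filter (0.47), DESeq2 (0.45) and limma-voom (0.46).

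Leaving out each library in turn gave these log2 ranges. For TSA in WT they were -0.29 to 0.0209 for Tet3 and -0.16 to 0.59 for Tdg, and for TSA in TKO -0.16 to 0.0752 and -0.23 to 0.0026. For TKO against WT in DMSO they were 0.25 to 0.65 for Tet2, -0.21 to 0.0301 for Tet3 and -0.0489 to 0.73 for Tdg. For TKO against WT with TSA they were -0.58 to 0.0665 for Tet1, -0.30 to 0.0508 for Tet2, -0.15 to 0.16 for Tet3 and -0.0946 to 0.12 for Tdg. Tdg ranged from -0.15 to 0.61 for both changes together. For the interaction, Tet3 ranged from -0.0686 to 0.24 and Tdg from -0.71 to 0.0576. Genes called ranged from 1458 to 3330 for TKO against WT in DMSO (3221 with all libraries), from 941 to 3443 with TSA (2910), and from 10 to 410 for the interaction (213), where no filter gave 488, DESeq2 401 and limma-voom 107. A lone library was assumed to vary like the other groups.

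The replicate numbers in the labels name no shared batch, and the correlation of same-numbered deviations ran from 0.07 to 0.32 over the 6 pairs of groups. With the replicate number as a block, 633 interactions were called and Tet2 passed for TKO against WT in DMSO at 0.45; no other call of a member changed. Over the other named genes, 998 of 1080 recomputed values kept direction and side of the threshold, 73 lost their call, 7 gained one and 2 changed sign, both uncalled and with total counts in WT: Ogt (0.0019) and Uhrf1 (0.0495). Few counts limit Tdg, whose entry drew at most 15 a library and has 2960 of its 3218 exon bases in other entries.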
